A study of Rattus norvegicus with 54 samples.

Results

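The infarct piece and the border zone piece of the same untreated infarcted rat heart were compared by RNA sequencing. They were 12 of the 54 libraries of the series, chosen by their titles as the infarct and border zone libraries of the 6 untreated MI hearts and paired by heart number. All animals were female athymic rats (F344/NJcl-rnu/rnu, a strain that lacks a thymus and most T cells), obtained at 8 weeks of age. Myocardial infarction (MI) was induced by complete, permanent ligation of the left anterior descending coronary artery, no treatment followed, and hearts were explanted after 1 week. Sham-operated hearts of the same strain, sex and age had no ligation, and the cell sheet hearts had the same ligation and then a bi-level sheet of human smooth muscle and endothelial progenitor cells over the infarct. Tissue below the stitch was dissected into the anterior left ventricle (infarct), the lateral wall (border zone) and the septum (remote zone), and each piece was frozen and pulverized whole, so a piece holds every cell type of its wall in unknown proportions. The labels name the replicate number a technical replicate, whereas the study's methods describe 6 hearts per group. Its results section gives a range of animals per group with 6 as the upper end. Libraries of the same number were taken as the same heart. If they were technical replicates, the p-values below would measure technical spread only.

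A ligated coronary artery kills the cardiomyocytes it supplies. The dead muscle is cleared by neutrophils and then macrophages, and activated fibroblasts (myofibroblasts) replace it with a collagen scar. About a week after ligation a rat infarct is in this proliferative phase, in which granulation tissue fills the wall. The border zone is the strip of surviving muscle beside it, known for stretched and oxygen-starved cardiomyocytes that express fetal genes. The comparison therefore asks how the transcriptome of the piece dissected as infarct differs from that of the piece dissected as border in the same heart.

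Promoters of 3 genes that stand for the groups the results turn on are shown here, 1 each for muscle, scar and inflammation, and were chosen after their values were seen. Myh6 encodes the main myosin heavy chain of the adult rat ventricle, Postn encodes periostin, a matrix protein of activated fibroblasts, and Il1b encodes the cytokine interleukin-1 beta. The sequences are RefSeq's, on the GRCr8 build, and give the 250 bases before the annotated start, 5′ to 3′ on the gene's strand. They lie at chr15:32411698-32411947 on the minus strand for Myh6, at chr2:140677811-140678060 on the plus strand for Postn and at chr3:137036582-137036831 on the minus strand for Il1b. Capitals mark CATTCC, the core of the muscle M-CAT element, in Myh6, and TATAAA, the TATA box, in Postn and Il1b. Both strands were searched and the motifs do not overlap each other.
Myh6: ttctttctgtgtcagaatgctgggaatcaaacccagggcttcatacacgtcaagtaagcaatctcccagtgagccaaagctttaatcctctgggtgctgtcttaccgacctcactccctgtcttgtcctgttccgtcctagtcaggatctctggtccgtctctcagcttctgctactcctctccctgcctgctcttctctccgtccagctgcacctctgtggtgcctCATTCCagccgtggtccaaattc
Postn: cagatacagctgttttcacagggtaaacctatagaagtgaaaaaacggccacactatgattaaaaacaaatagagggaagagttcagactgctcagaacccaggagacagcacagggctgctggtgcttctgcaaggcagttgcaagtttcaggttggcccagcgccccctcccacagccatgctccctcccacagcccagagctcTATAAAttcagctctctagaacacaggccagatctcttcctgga
Il1b: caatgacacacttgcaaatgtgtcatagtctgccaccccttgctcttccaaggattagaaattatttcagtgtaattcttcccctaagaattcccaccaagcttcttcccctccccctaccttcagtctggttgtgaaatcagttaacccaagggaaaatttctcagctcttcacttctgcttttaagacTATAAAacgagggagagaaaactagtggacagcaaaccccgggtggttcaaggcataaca
Among the 33469 promoters of the table, 12.1% hold CATTCC and 12.9% hold TATAAA on either strand in the same window. A match is a description of the letters and not of a bound site.

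The libraries held 18821474 to 22459805 counts on genes in the infarct zone and 16427859 to 20218625 in the border zone, so counting error is small for all but low genes. Reads assigned to no gene made up 11.87% to 26.21% of the counts in the infarct zone and 14.02% to 22.14% in the border zone. That share differed by -0.813 percentage points ± 5.26 (SD, n = 6 hearts) between zones, which was within the spread of the hearts (exact sign-flip permutation test, 2-sided, p = 0.688). With 6 hearts the smallest p this test can give is 0.03125. It tests the mean over hearts, and single hearts ran from -8.58 to 6.14 points. No pair of libraries within a zone or within a heart was the same library under different labels. Infarct and border pieces of different hearts were not compared in this way.

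The zone labels were first checked against the muscle itself. The level of a gene list is the mean log2 CPM (the count scaled to a fixed library size, so that libraries can be compared) of its genes in a library, and the sarcomere list holds 20 genes of the contractile apparatus. Its level in the pieces labelled infarct was 10.69, 7.58, 10.23, 9.30, 9.29 and 7.89 in hearts 1 to 6. In the border pieces of the same hearts it was 10.15, 7.88, 8.20, 10.07, 10.39 and 10.10, and the remote pieces lay between 10.36 and 11.01. Hearts 4, 5 and 6 had less muscle RNA in the piece labelled infarct, with differences (infarct minus border) of -0.77, -1.10 and -2.20 log2 units. Hearts 1 and 3 went the other way: the piece labelled infarct exceeded the border piece by 0.54 in heart 1 and by 2.03 in heart 3. All 20 sarcomere genes were higher in the piece labelled infarct in hearts 1 and 3, and none was in hearts 4, 5 and 6. In heart 2, whose pieces were both low, 4 were. The share of reads on no gene split the hearts the same way. It was higher in the piece labelled infarct only in heart 1 (26.21% against 22.14%) and heart 3 (20.16% against 14.02%). Its part in the muscle values was not tested. Pieces exchanged in labelling and pieces cut at other positions cannot be told apart from these files, and an exchange would turn the sign of every difference of hearts 1 and 3 below. The labels were kept as deposited, and "infarct" below means the library labelled infarct. In pieces of bulk tissue, fewer cardiomyocytes and less RNA per cardiomyocyte cannot be told apart.

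**Figure D1:**
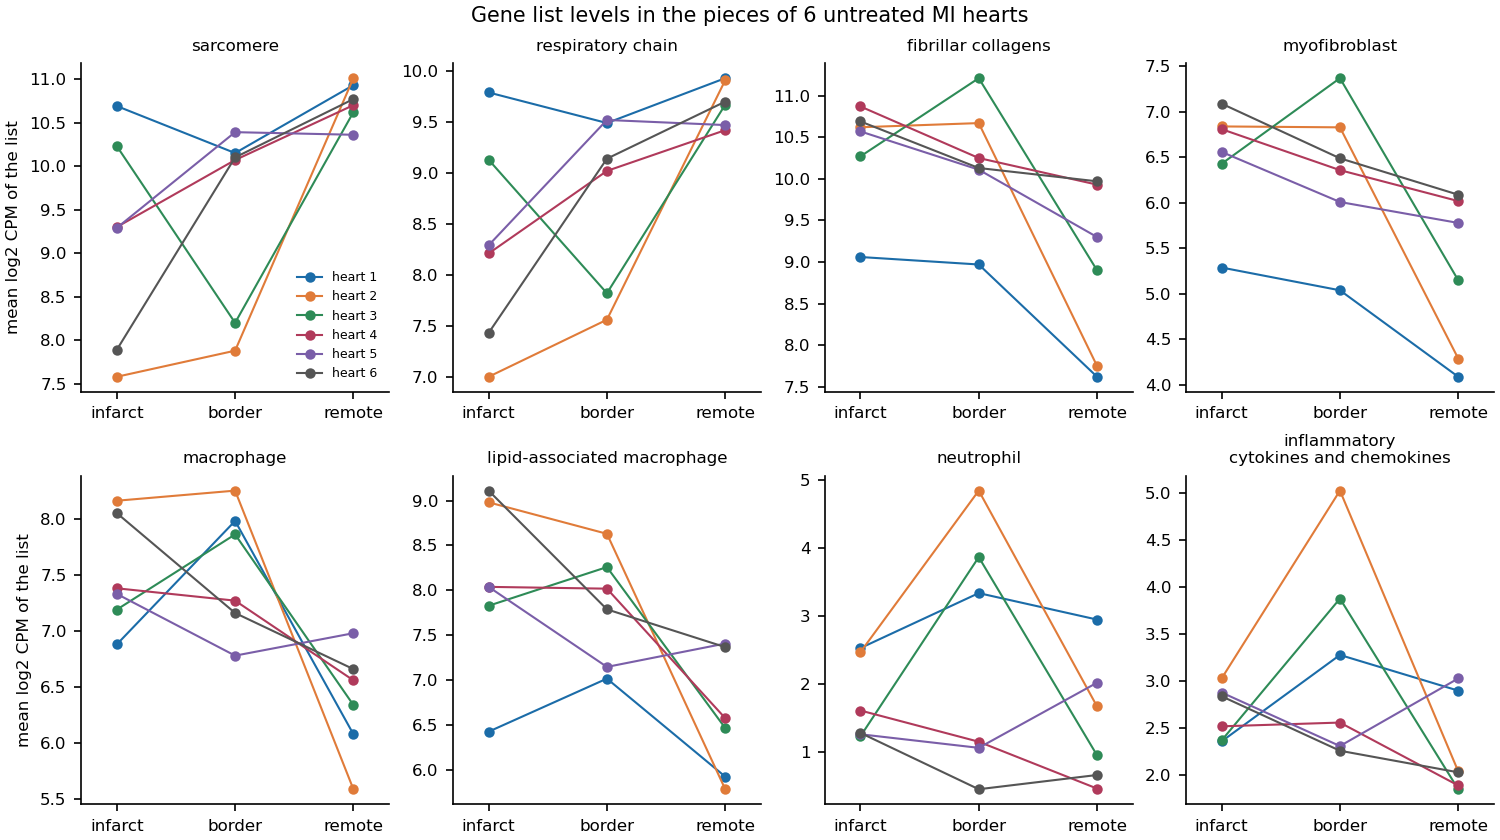
Level of 8 gene lists (mean log2 CPM, y axis) in the infarct, border and remote piece (x axis) of each of the 6 untreated MI hearts; every line joins the pieces of 1 heart. The sarcomere line of heart 3 falls from 10.23 in the infarct piece to 8.20 in the border piece while that of heart 6 climbs from 7.89 to 10.10, and neutrophil genes stand highest in the border pieces of hearts 1, 2 and 3.

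No gene passed the adjusted threshold between infarct and border zone over the 6 hearts in the edgeR test. Counts were tested gene by gene with edgeR's quasi-likelihood test with the heart as a block, and log2 fold changes are infarct minus border. Of 16142 genes tested, 0 (0%) had an adjusted p below the threshold of 0.05, the lowest adjusted p being 0.887. At an unadjusted p below 0.05 there were 882 genes, 5.46% of those tested, of which 557 (3.45%) were higher in the infarct and 325 (2.01%) higher in the border zone. limma-voom also gave 0 genes, with 973 at an unadjusted p below 0.05. DESeq2 gave 1 gene, Csf3, the neutrophil growth factor G-CSF, at -3.91 (adjusted p = 0.0297). Csf3 had 0 to 8 counts in the infarct libraries and 2 to 309 in the border libraries, too few to pass the filter of the edgeR test. In edgeR without that filter it stood at -3.98 with an adjusted p of 0.965. Every gene value given below from the edgeR test of infarct against border zone has an adjusted p of 0.887 or more.

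The precision differed between genes. The median standard error of a log2 fold change was 0.16, and for 12668 genes (78.5%) the 95% interval lay wholly between -1 and 1, that is within a 2-fold change in either direction. Only 148 genes (0.917%) had a fitted difference above 1 in size. The median heart-to-heart SD of the zone difference was 0.39 log2 units, and it was 1.47 for the median sarcomere gene. Direction was shared by all 6 hearts in 676 genes (4.19%), 375 (2.32%) higher in the infarct and 301 (1.86%) higher in the border zone. Leaving out heart 3 left 0 genes past the threshold but raised the number at an unadjusted p below 0.05 to 1685 (10.4%), whereas it was 365 (2.27%) without heart 2, 576 without heart 4 and 456 without heart 5.

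**Figure D2:**
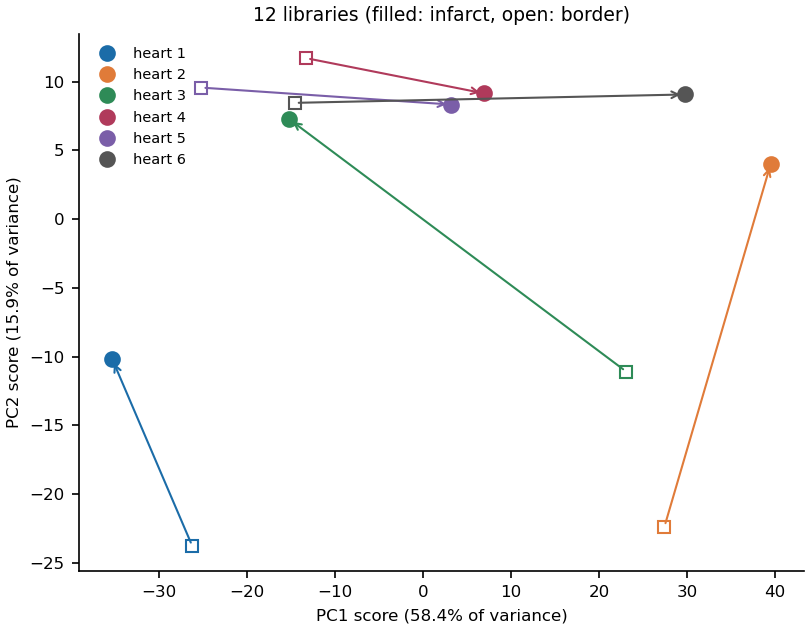
Scores of the 12 libraries on the first 2 principal components of the 500 most variable genes (axes in PC units, with the percent of variance); arrows run from the border piece (open square) to the infarct piece (filled circle) of each heart. Arrows of hearts 2, 4, 5 and 6 run to higher PC1 and those of hearts 1 and 3 to lower PC1.

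The leading axis of variation ran through both zones. PC1 carried 58.4% of the variance, and the infarct pieces averaged 4.81 ± 27.7 against -4.81 ± 23.9 for the border pieces (SD, n = 6). The difference within hearts was 9.62 ± 29.4, it was above 0 in 4 of 6 hearts, and the exact sign-flip permutation test gave p = 0.438 (adjusted over the 2 components p = 0.438). The PC1 difference between zones was 20.2 without heart 3 (exact permutation p = 0.125) and 1.85 without heart 6 (exact permutation p = 0.938). PC2 carried 15.9%, and its difference of 9.22 ± 12 was above 0 in 4 of 6 hearts (exact permutation p = 0.219).

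Cardiomyocyte genes differed widely between the pieces of a heart, but not in one direction. Myh6 stood at 74.4 to 3070 CPM in the infarct (median 735) and at 271 to 2080 CPM in the border zone (median 1680). The groups overlapped entirely, with heart 1 the highest infarct piece and heart 2 the lowest piece of either zone. Its fitted difference was -0.78 (95% interval -2.52 to 0.95), which lies on both sides of 0. Tnnt2, cardiac troponin T, ran from 604 to 5680 CPM in the infarct (median 1960) and from 653 to 4530 CPM in the border zone (median 3370), a difference of -0.37 (-1.58 to 0.84). Myl2, the ventricular regulatory myosin light chain, stood at -0.33 in the fit, with hearts from -2.25 to 1.89. None of the 20 sarcomere genes reached an unadjusted p below 0.05, against 5.46% of all genes, and their median difference was -0.31 where that of all genes was 0.0026.

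The other muscle programmes followed the sarcomere heart by heart. Atp2a2, the calcium pump SERCA2a that refills the sarcoplasmic reticulum, had 428 to 3770 CPM in the infarct (median 1230) and 557 to 3000 CPM in the border zone (median 2350). Its fitted difference was -0.42 (-1.69 to 0.85). The median difference was -0.30 for 14 calcium handling genes, -0.30 for 18 ion channel and intercalated disc genes, -0.37 for 19 respiratory chain genes and -0.28 for 17 fatty acid oxidation genes, with 0 members at an unadjusted p below 0.05 in any of these lists. The zone difference of each of these lists had the sign of the sarcomere difference in 6 of 6 hearts, as did those of the glycolysis and hypoxia lists. Some of the latter were close to 0. The hypoxia list differed by 0.03 in heart 1, 0.04 in heart 3 and -0.06 in heart 4, and the glycolysis list by 0.05 in heart 1. All 19 respiratory chain genes were higher in the infarct piece in hearts 1 and 3, and all 19 were lower in hearts 2, 4, 5 and 6. Gja1, connexin 43 of the gap junctions, kept more of a direction, being lower in the infarct in 5 of 6 hearts with 148 to 386 CPM (median 200) against 250 to 355 CPM (median 302) in the border zone. Its fitted difference was -0.37 (-0.77 to 0.02, unadjusted p = 0.0598), and the groups overlapped.

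Stretch-response genes, which mark loaded and border zone cardiomyocytes, were not uniformly higher in the border piece. Nppa, atrial natriuretic peptide, had 1300 to 6900 CPM in the infarct (median 3060) and 1280 to 12500 CPM in the border zone (median 5000). The difference was -2.02 and -2.22 log2 units in hearts 5 and 6, while the other 4 hearts lay between -0.03 and 0.61. Nppb, B-type natriuretic peptide, had 187 to 753 CPM in the infarct (median 326) and 194 to 1190 CPM in the border zone (median 527), a difference of -0.44 (-1.36 to 0.48). Ankrd1, a stretch-induced titin-binding protein, differed by -1.72 in heart 5 and -1.51 in heart 6 but by 1.25 in heart 3. Of 14 stretch and Z-disc genes, 14 were higher in the infarct piece in hearts 1 and 3, 12 in heart 2, 2 in heart 4 and 0 in hearts 5 and 6. The difference of the list had the sign of the sarcomere difference in 5 of 6 hearts, heart 2 being the exception.

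**Figure D3:**
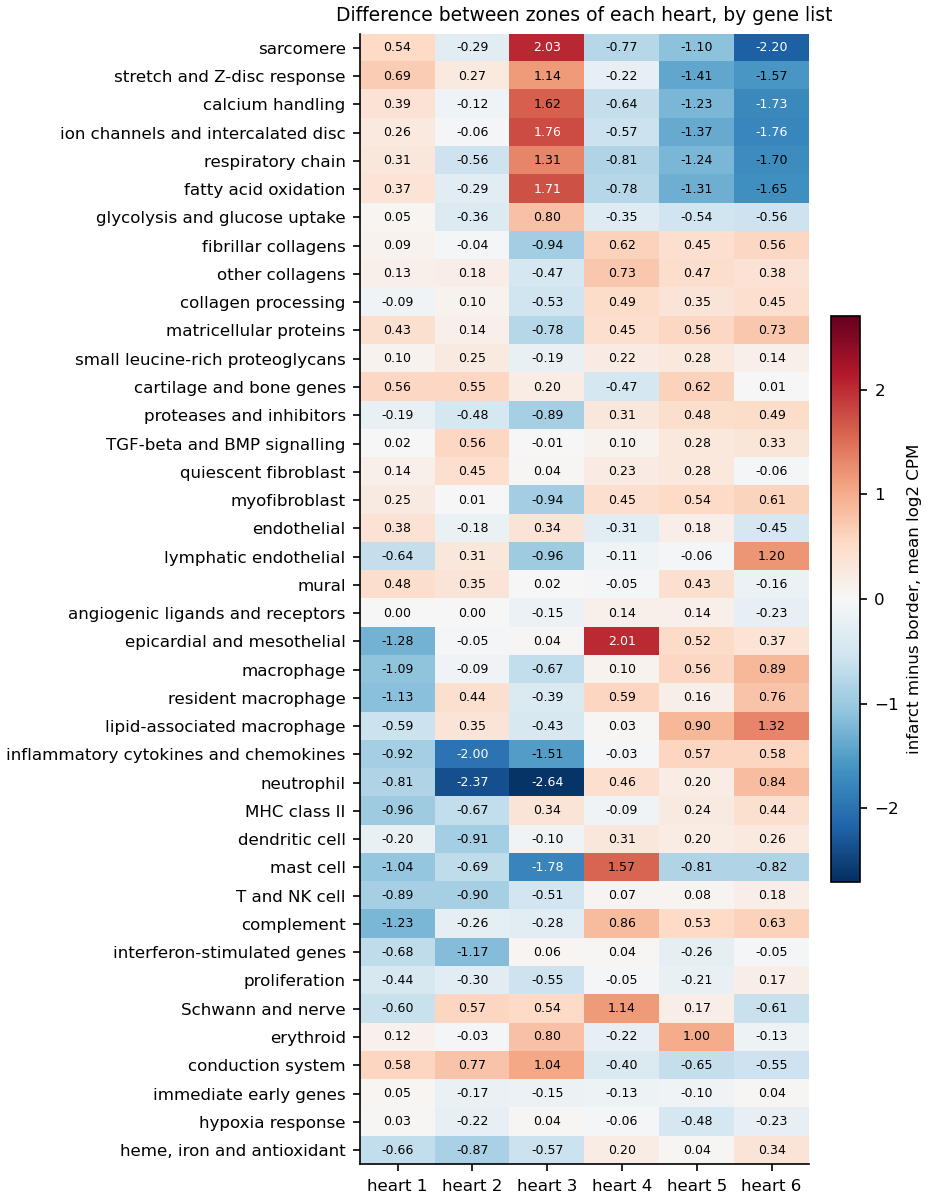
Difference between the infarct and border piece of each heart (columns) for 40 gene lists (rows) as infarct minus border in mean log2 CPM, printed in each cell and coloured from blue (lower in infarct) to red (higher in infarct). The muscle lists are red in hearts 1 and 3 and blue in hearts 4, 5 and 6, and the neutrophil and cytokine lists are blue in hearts 1, 2 and 3.

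Scar genes differed between pieces in opposite directions in different hearts. Col1a1, the main chain of type I collagen, had 2800 to 11300 CPM in the infarct (median 8920) and 3270 to 12900 CPM in the border zone (median 5900). Its difference was 0.81 to 0.99 in hearts 4, 5 and 6 and -0.89 in heart 3, and the fitted difference was 0.27 (-0.43 to 0.97). Col3a1, type III collagen, differed by 0.03 (-0.52 to 0.59), with 6320 to 18200 CPM in the infarct and 8120 to 19800 CPM in the border zone. Its interval lies within a 2-fold difference either way. Postn differed by -0.09 (-0.76 to 0.57) and Cthrc1, a collagen-associated protein of activated scar fibroblasts, by 0.00 (-0.66 to 0.66). Postn stood at 794 to 2530 CPM in the infarct and at 547 to 3890 CPM in the border zone, and heart 1 was the lowest in both. None of the 7 fibrillar collagen genes tested had an unadjusted p below 0.05, and their median difference was 0.15.

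Of 16 collagen processing genes, 5 had an unadjusted p below 0.05 and all 5 were higher in the infarct, where the share of all genes higher at that level was 3.45%. They were Plod1 (0.24), Plod3 (0.33), Loxl1 (0.25), Loxl3 (0.33) and Adamts2 (0.27), which hydroxylate collagen lysines, cross-link collagen or elastin, or trim procollagen. Among 14 genes of TGF-beta and BMP signalling 3 did so, the ligand Tgfb3 (0.49) and the latent TGF-beta binding proteins Ltbp1 (0.45) and Ltbp2 (0.57), each higher in the infarct in 6 of 6 hearts. Ltbp2 had 80.6 to 792 CPM in the infarct (median 714) and 64.4 to 566 CPM in the border zone (median 423), with an unadjusted p of 0.0026. Of 15 matricellular genes 3 did so, Ccn1 (0.37), Ccn2 (0.53) and Comp (1.31), the last with an SD of 1.40 between hearts. Of 8 cartilage and bone genes, Sox9 (0.58), Cilp (0.44) and Cilp2 (0.85) did so, whereas Hapln1 (-0.99), Alpl and Runx2 had a fitted difference below 0. None of these passed the adjusted threshold, and the difference of the collagen processing list was opposite in sign to that of the sarcomere list in 6 of 6 hearts.

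Contractile genes of smooth muscle and myofibroblasts were higher in the infarct piece in most hearts. Myh11, smooth muscle myosin, stood at 33.6 to 168 CPM in the infarct (median 82) and at 21.1 to 73.8 CPM in the border zone (median 53.6). The infarct piece was the higher in 5 of 6 hearts, by 0.22 to 1.55, and heart 3 was level at -0.04. The fitted difference was 0.82 (0.29 to 1.34, unadjusted p = 0.0072). Acta2, smooth muscle actin, had 86.8 to 651 CPM in the infarct (median 395) and 61.1 to 475 CPM in the border zone (median 277), a difference of 0.66 (0.10 to 1.22, unadjusted p = 0.027), and Tagln differed by 0.66. Both zones held heart 1 as their lowest piece for Acta2 and Myh11. The pericyte genes Pdgfrb (0.30) and Notch3 (0.33) were higher in 5 of 6 hearts, so 3 of 10 mural genes had an unadjusted p below 0.05. The other direction was held by 4 of the 10, Higd1b (-0.30), Rgs5, Kcnj8 and Mcam, with fitted differences below 0. Of 12 myofibroblast genes, 4 had an unadjusted p below 0.05, all higher in the infarct, but 5 of the 12 had a fitted difference below 0, the lowest being Lrrc15 at -0.34. Of all genes, 3.45% were higher in the infarct at that p.

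Endothelial and angiogenic genes showed little zone difference on average over the hearts. The hearts were split for endothelial genes, with 12, 3, 10, 1, 10 and 2 of 12 higher in the infarct in hearts 1 to 6. Pecam1, the adhesion molecule CD31, had 174 to 374 CPM in the infarct and 200 to 317 CPM in the border zone, a difference of -0.05 (-0.42 to 0.31). Of 12 endothelial genes, 1, Erg (0.24), had an unadjusted p below 0.05, where 5.46% of all genes did. Of 15 angiogenic ligands and receptors, 1 did so, Angpt1, the vessel-stabilising ligand of Tie2, at -0.57 and lower in the infarct in 5 of 6 hearts. Vegfa differed by -0.18 (-0.79 to 0.43), with hearts from -1.20 to 0.98. Wt1, a factor of the epicardium, differed by -0.09 (-0.52 to 0.33), with 25.7 to 44.7 CPM in the infarct and 27.9 to 69.5 CPM in the border zone. It was the lowest of 11 epicardial and mesothelial genes. Of these, 9 had a fitted difference above 0, the median was 0.22, and 0 had an unadjusted p below 0.05.

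**Figure D4:**
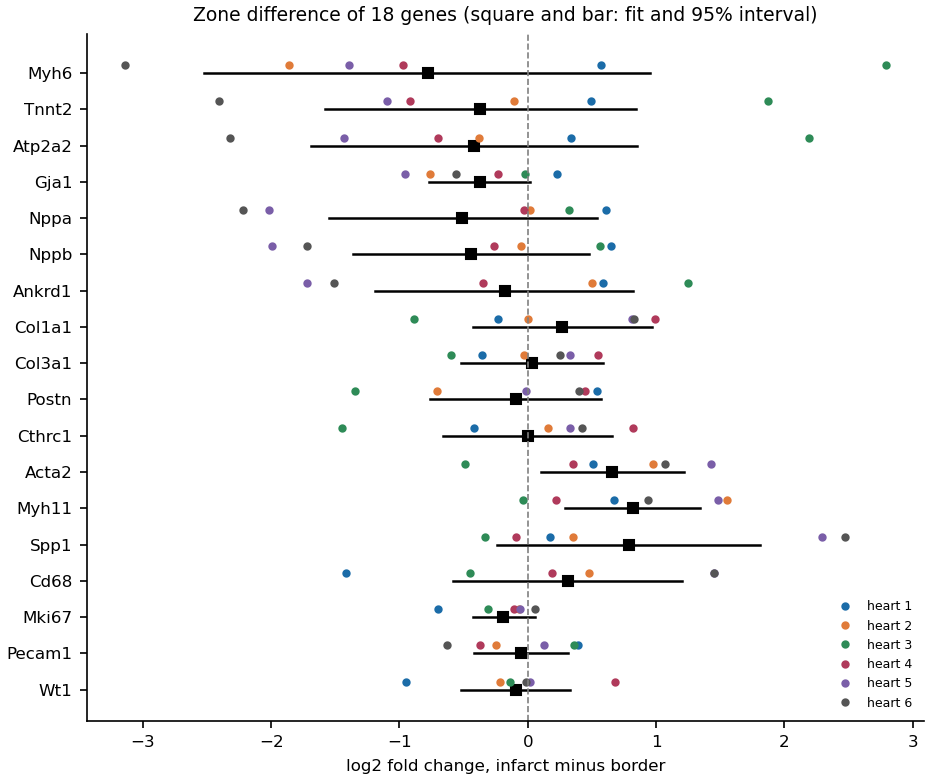
Zone difference of 18 genes fixed by name (x axis, log2 fold change, infarct minus border); squares and bars are the edgeR fit and its 95% interval, and dots are the 6 hearts. Only the bars of Acta2 and Myh11 lie wholly to the right of 0, and the bar of Myh6, from -2.52 to 0.95, is the widest.

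Macrophage genes divided the hearts. Cd68, a lysosomal protein of macrophages, had 37.6 to 351 CPM in the infarct (median 137) and 47 to 252 CPM in the border zone (median 124). Its difference was 1.45 in hearts 5 and 6 and -1.42 in heart 1. Spp1, osteopontin, which scar macrophages secrete, ran from 22.8 to 3380 CPM in the infarct (median 733) and from 20.3 to 1630 CPM in the border zone (median 693). Its infarct excess was 2.29 in heart 5 and 2.47 in heart 6, and the other 4 hearts lay between -0.33 and 0.35. The median difference was -0.07 for 12 macrophage genes and 0.37 for 11 genes of lipid-associated macrophages, which clear dead cells, with 0 members at an unadjusted p below 0.05 in either list. Differences of the lipid-associated and resident macrophage lists were opposite in sign to that of the sarcomere list in 6 of 6 hearts. Cx3cr1, the fractalkine receptor of monocytes and macrophages, is not in these lists but in that of cytokines and chemokines. It was higher in the infarct in 6 of 6 hearts at 0.35, as were 2.32% of all genes in all 6 hearts. Its SD was 0.11 and its unadjusted p 0.0028. Of the 16 cytokine and chemokine genes, only 2 had a fitted difference above 0, and the median was -0.39.

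Most early inflammatory genes were higher in the border piece than in the infarct piece in hearts 1, 2 and 3. Of 16 cytokine and chemokine genes, 4, 2 and 1 went the other way in these hearts, Il6 by 1.83 in heart 1. Il1b had 13, 11.9, 9.89, 6.11, 12 and 6.1 CPM in the infarct pieces of hearts 1 to 6. In the border pieces it had 55.5, 271, 53.4, 7.32, 8.5 and 4.58 CPM. The border piece was thus the higher in hearts 1, 2 and 3, with differences of -2.08, -4.49 and -2.42, and hearts 4, 5 and 6 differed by -0.26 to 0.49. Cxcl2, a chemokine that draws neutrophils, had 55.8, 183 and 22.3 CPM in the border pieces of hearts 1, 2 and 3, and 0.663 to 2.76 CPM in those of the other hearts. In the infarct it had 0.282 to 6.03 CPM, and its fitted difference was -2.84 (-5.26 to -0.42, unadjusted p = 0.0269), lower in the infarct in 5 of 6 hearts. Nos2, the inducible nitric oxide synthase of activated macrophages, had 71.9, 247 and 29.3 CPM in the border pieces of hearts 1, 2 and 3, against 1.93 to 12.4 CPM over all infarct pieces. In the same 3 hearts the difference was -2.65 to -4.03 for Clec4e, a receptor for dead cells on myeloid cells, and -2.32 to -4.35 for Mmp9, a gelatinase of neutrophils.

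The 20 genes whose zone difference varied most between hearts were named after their values were seen. They were taken from tested genes with a symbol and an average of 1 log2 CPM or more. Of these 20, 11 were classed by hand as inflammatory, and the share of such genes among all genes was not counted. Their hearts differed: Il10 had its largest difference in heart 4, at 3.28, and Cxcl6 was at -0.06 in heart 1. Cxcl3 (SD 3.51), Hcar2 (3.32), Cxcl6 (3.16), Acod1 (2.94), Cxcl2 (2.68), Mmp9 (2.63), Nos2 (2.48), Il10 (2.44), S100a8 (2.35), Clec4e (2.28) and Ccl3 (2.25) are chemokines, cytokines or products of activated myeloid cells. Muscle genes such as Dhrs7c (2.20) and the pacemaker channel Hcn4 (2.57) were among the rest. The neutrophil list, which includes S100a8 and S100a9, differed by -0.81, -2.37 and -2.64 in hearts 1, 2 and 3 and by 0.20 to 0.84 in hearts 4, 5 and 6. S100a9 stood at 63.9, 204 and 109 CPM in the border pieces of hearts 1, 2 and 3 and at 3.31 to 8.91 CPM in the others. Its fitted difference was -1.41 (-2.96 to 0.13), and 0 of 8 neutrophil genes had an unadjusted p below 0.05. The cytokine list differed by -0.92, -2.00 and -1.51 in hearts 1, 2 and 3 and by -0.03, 0.57 and 0.58 in hearts 4, 5 and 6. Of its 16 genes, Tnf (-0.74) and Cxcl2 were lower and Cx3cr1 higher at an unadjusted p below 0.05. Of all genes, 2.01% were lower and 3.45% higher in the infarct at that p. In heart 1 the remote piece exceeded the border piece for several of these transcripts, with 61.9 CPM for Il1b, 83.2 CPM for Cxcl2 and 100 CPM for Nos2. The neutrophil level was 2.95 in that piece and 0.46 to 2.02 in the other remote pieces.

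**Figure D5:**
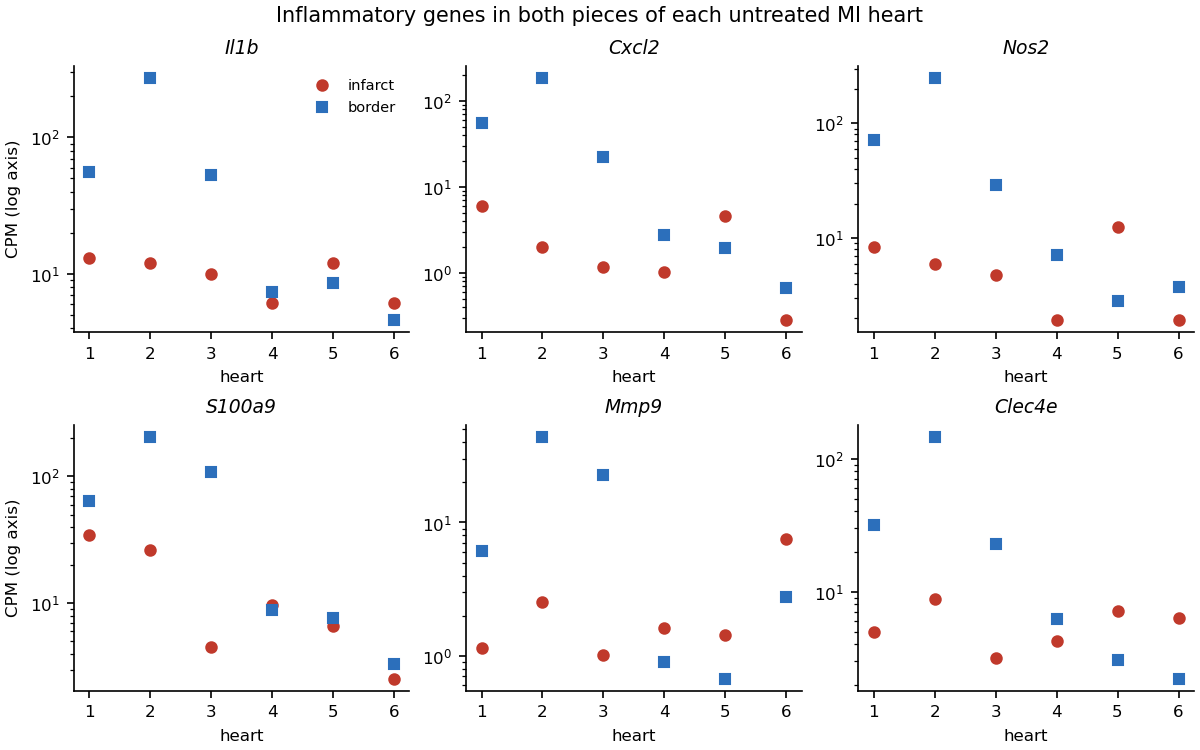
Level of 6 inflammatory genes in CPM (y axis, log scale) in the infarct piece (red circle) and border piece (blue square) of hearts 1 to 6 (x axis). Border pieces of hearts 1, 2 and 3 lie above their infarct pieces for all 6 genes, for Il1b at 55.5, 271 and 53.4 CPM.

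No proliferation gene passed the adjusted threshold. Of 16 cell cycle genes, 15 had a fitted difference below 0 and 5 had an unadjusted p below 0.05, all 5 lower in the infarct, where 2.01% of all genes did so. Top2a (-0.33), Kif11 (-0.34) and Aurkb (-0.30), which untangle and part chromosomes, were lower in the infarct in 6 of 6 hearts, and Cdc20 and Pcna in 5 of 6. Mki67, the antigen Ki-67 of cycling cells, differed by -0.19 (-0.43 to 0.06), with 30.8 to 77.4 CPM in the infarct (median 62.1) and 50.1 to 82.1 CPM in the border zone (median 65). The list differed by -0.55 to 0.17, with heart 6 the only one above 0 (13 of 16 genes higher in the infarct), and its median difference was -0.25. These sizes amount to less than a 1.5-fold difference for any of the genes named.

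Among lymphoid genes, Gzmb, the granzyme of killer cells, was lower in the infarct in 6 of 6 hearts at -1.59 (-2.29 to -0.88, unadjusted p = 0.000866). It rested on 6 to 23 counts per infarct library and 16 to 81 per border library, or 0.27 to 1.25 and 0.848 to 3.65 CPM. No other of the 11 T and NK cell genes had an unadjusted p below 0.05, where 5.46% of all genes did. Higher in the infarct were 0, 1 and 2 of the 11 in hearts 1, 2 and 3, and 7, 7 and 6 in hearts 4, 5 and 6. Of 14 interferon-stimulated genes all 14 had a fitted difference below 0, and Ifit3 (-1.10) and Oasl (-0.61) had an unadjusted p below 0.05, where 2.01% of all genes were lower in the infarct at that p. The hearts were split, with 10, 8 and 8 of the 14 higher in the infarct in hearts 3, 4 and 6, and 1, 0 and 3 in hearts 1, 2 and 5. Of 11 heme, iron and antioxidant genes, 1 had an unadjusted p below 0.05, Tfrc, the transferrin receptor. It was lower in the infarct in 6 of 6 hearts at -1.04 (unadjusted p = 0.00525), as were 1.86% of all genes in all 6 hearts. Its list differed by -0.66, -0.87 and -0.57 in hearts 1, 2 and 3 and by 0.20, 0.04 and 0.34 in hearts 4, 5 and 6. Mast cell genes differed by -0.69 to -1.78 in 5 hearts and by 1.57 in heart 4, and their median difference was -0.71 with 0 of 6 genes at an unadjusted p below 0.05.

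Markers of tissue beside the ventricle moved with some hearts, and their part in the results was not tested. Epicardial and mesothelial genes differed by -1.28 in heart 1 and 2.01 in heart 4. Adipoq, the adipocyte hormone, was at 35.2 CPM in the infarct piece of heart 4 and at 19 CPM in the border piece of heart 1, with 0 to 4.01 CPM in the other 10 pieces. It did not pass the filter on low counts, as only 2 of 10 adipocyte genes did. Myl7, an atrial myosin light chain, was at 23.2 CPM in the infarct piece of heart 1, 0.0935 to 2.35 CPM in the other 11 pieces and 64 CPM in the remote piece of heart 1. No gene of the 4 lung epithelium markers passed the filter.

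Of genes with a symbol that averaged 1 log2 CPM or more and went one way in all 6 hearts, the 5 with the lowest unadjusted p on each side are given next; Gzmb lies under that level. On the infarct side they were Frzb, a secreted Wnt antagonist (0.88, 0.49 to 1.27, unadjusted p = 0.000872), Ndor1 (0.52), Bcl9l, a co-activator of beta-catenin (0.35), Zfp703 (0.36) and Crtc1 (0.37). Frzb had 4.4 to 42.8 CPM in the infarct (median 29.5) and 3.04 to 20.7 CPM in the border zone (median 15.6). On the border side they were Rnf139, a ubiquitin ligase of the endoplasmic reticulum (-0.42, -0.60 to -0.23, unadjusted p = 0.000991), Trnt (-1.02), Kif23, a kinesin of cytokinesis (-0.37), Smim15 (-0.30) and Ptpn2, a phosphatase that restrains cytokine signalling (-0.32). Rnf139 had 21.7 to 34.6 CPM in the infarct (median 24.3) and 25.2 to 42.4 CPM in the border zone (median 34). None of these 10 is past the adjusted threshold. Smim15 was the only one whose groups did not overlap, with 52 to 65.3 CPM in the infarct and 69.4 to 82.3 CPM in the border zone. Groups did not overlap in 27 of the 16142 genes tested (0.167%).

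The remote piece of the same hearts, a comparison added after the data were seen, gives a reference level within each heart. Remote libraries held fewer counts on genes, 12963330 to 17049549 against 18821474 to 22459805 in the infarct zone. Reads on no gene made up 24.1% to 35.27% there, 11.87% to 26.21% in the infarct zone and 14.02% to 22.14% in the border zone. Whether these library differences bear on the comparisons with the remote piece was not tested. Infarct against remote gave 5784 of 15901 genes (36.4%) past the adjusted threshold in edgeR and 48.2% at an unadjusted p below 0.05, with 2912 of the 5784 higher and 2872 lower in the infarct. With any 1 heart left out the count was 3236 to 5928, 3236 without heart 4 and 3344 without heart 6. Border against remote gave 0 of 15738 (0%), with 5943 (37.8%) at an unadjusted p below 0.05 and a lowest adjusted p of 0.0751. That 0 depended on the test: DESeq2 gave 4370 genes, and edgeR without the heart block gave 3409. The 2 comparisons share the remote libraries. Col1a1 differed by 1.55 in the infarct (adjusted p = 0.00936) and by 1.30 in the border zone (adjusted p = 0.0846), and Atp2a2 by -1.84 (0.0239) and -1.45 (0.0852). All 7 fibrillar collagens, 10 of 12 macrophage genes and 14 of 20 sarcomere genes passed in the infarct against remote, the sarcomere genes lower, with list medians of 1.16, 1.08 and -1.57. The border medians were 1.05, 1.28 and -1.25, with 0 genes passing. Myh11 stood at 1.33 in the infarct (adjusted p = 0.00872) and 0.52 in the border zone (adjusted p = 0.0812).

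Sham and cell sheet hearts give the same comparison without ligation and with treatment. In sham hearts the same positions differed in 1 of 15056 genes (0.00664%), Ndufb3, a subunit of respiratory complex I (adjusted p = 0.0269), with 1125 (7.47%) at an unadjusted p below 0.05; DESeq2 gave 68. The sarcomere list differed by 0.03 ± 0.20 in sham hearts, by -0.30 ± 1.46 in untreated MI hearts and by -1.05 ± 3.57 in cell sheet hearts (SD, n = 6 each). Both pieces of sham heart 5 stood apart, with Spp1 at 36 and 48.8 CPM where the other sham pieces of these positions had 0.594 to 2.87 CPM. The immune genes Lyz2 (10700 and 10600 against 131 to 387 CPM) and Cd74 (5890 and 6670 against 533 to 613 CPM) did so too. This heart was kept in the sham and interaction tests. In cell sheet hearts 0 of 16343 genes (0%) passed in edgeR, with 2213 (13.5%) at an unadjusted p below 0.05, and DESeq2 gave 521.

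The difference of the zone effect itself between groups was also tested. Against sham hearts, 0 of 16766 genes (0%) passed, with 1430 (8.53%) at an unadjusted p below 0.05 and a lowest adjusted p of 0.131, and DESeq2 gave 62. Against cell sheet hearts, 0 of 17275 (0%) passed, with 2012 (11.6%) at an unadjusted p below 0.05 and a lowest adjusted p of 0.186, and DESeq2 gave 353. Genes known only by a LOC, RGD or MGC identifier are not named, and 1 of them came first in each comparison, with the lowest adjusted p of 0.131 against sham. Among genes with a symbol, the first against sham were Rnf139 (-0.53, adjusted p = 0.255), Trnt (-1.56), Fcf1 (-0.65), Psma4, a proteasome subunit (-0.60), and Coq10b (-0.65). Against cell sheet hearts they were C1qtnf7 (-1.21, adjusted p = 0.186), Helz (0.51), Cyp2e1 (4.93), Spen (0.73) and Smim15 (-0.68). Cyp2e1, a cytochrome P450, had 0.162 to 1.66 CPM in the untreated infarct pieces and 0 to 0.835 CPM in their border pieces, and its cell sheet border pieces had 0.673 to 12.1 CPM.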

How the data were processed

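Frozen left ventricular pieces were pulverized, RNA was extracted with a column kit, and poly-A libraries were sequenced together as paired-end reads. The authors used STAR for trimming and alignment, with mRatBN7.2 as the rat genome, and deposited whole-number counts per gene and library, not normalized; the counting program and strand setting are not given in the sources used here, so overlapping and near-identical genes are uncertain. The authors' own tests used DESeq2. Of 54 libraries, 42 were used; the 12 remote libraries of sham and cell sheet hearts were not used here. Each table lists 40319 genes and 5 summary lines (17.74% to 30.91% of the counts in the 12 libraries), which were left out of totals and tests.

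Zones were compared with edgeR 4.0.16 in R 4.3.3 (TMM, filterByExpr, quasi-likelihood F test, heart as block, Benjamini-Hochberg, threshold 0.05; interactions with the animal as block). Levels are CPM with TMM factors over the 42 libraries; list levels and heart differences use log2 CPM with a prior count of 2. Single values were tested by an exact sign-flip permutation over 6 hearts, 2-sided. The heart was kept as the block because the study took all zones from each animal; deviations of same-numbered infarct and border libraries correlated at 0.585, 0.697, -0.456, 0.0907, 0.142 and -0.237 in hearts 1 to 6. Within zones and hearts the chi-square per degree of freedom between libraries was at least 11.3. Alternatives were DESeq2 1.42.0, limma-voom (limma 3.58.1), other filters and scaling, no block, the sarcomere level as a covariate, remote libraries in the fit and each heart left out. The scripts were tested on simulated data.

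Members and the 45 lists (518 genes, 514 of them in the tables) were chosen with earlier results of these data known. Genes named (symbols only, none known by a LOC, RGD or MGC identifier alone) are a fixed set of 19, the 5 per direction with the lowest unadjusted p among genes that went 1 way in all 6 hearts and averaged 1 log2 CPM or more (no gene passed the threshold), the highest member of each list, up to 5 per interaction and, added after values were seen, the 20 tested genes of the same minimum level with the largest SD between hearts and list members at an unadjusted p below 0.05. Promoters were matched by symbol to a RefSeq table of the GRCr8 build, which held 380 of the 518 list genes.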

Additional observations from a re-analysis of the deposited data

Results flagged for a closer look

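Values of 6 pieces, or of 6 heart differences, were examined for a highest or lowest value far from the rest (Dixon's ratio above 0.625). Of 174 such groups 13 stood out, where chance gives about 1 in 20. Of these, 8 were low values of the infarct piece of heart 1. Its fibrillar collagen level was 9.06 where the other infarct pieces had 10.27 to 10.87, and its level of other collagens was 6.05 against 6.97 to 7.51. TGF-beta and BMP signalling stood at 5.14 against 5.92 to 6.26, and the myofibroblast list at 5.29 against 6.43 to 7.09. On the log2 CPM scale, Col1a1 was at 11.45, Col3a1 at 12.63, Acta2 at 6.44 and Spp1 at 4.52 in that piece. The border piece of heart 1 was low for the mural list, at 5.19 against 5.80 to 6.15, and high for resident macrophage genes, at 6.16 against 4.59 to 5.16. The border piece of heart 2 was high for dendritic cell genes, at 3.60 against 2.05 to 2.42, and low for the hypoxia list, at 5.01 against 5.32 to 5.49. The mast cell difference of heart 4 was 1.57 where the other hearts had -1.78 to -0.69.

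In 4 genes every untreated MI heart differed between zones in one direction and every heart of another group in the other, a split that was seen in genes chosen for a low interaction p. Psma4 differed by -0.28 on average in MI hearts and by 0.18 to 0.48 in sham hearts, and its interaction had an adjusted p of 0.286 by edgeR. Against cell sheet hearts, Psma4 (-0.28 against 0.06 to 0.49), C1qtnf7 (-0.15 against 0.62 to 1.76), Helz (0.17 against -0.51 to -0.19) and Cyp2e1 (1.32 against -4.91 to -0.40) had an adjusted p of 0.186 each, so none passed the threshold.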

How the results depend on the processing

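The count of 0 genes between infarct and border zone was the same under every alternative run except DESeq2, which gave 1. Without a replicate block it was 0 with 517 genes at an unadjusted p below 0.05, so pairing by heart changed no call here; the sarcomere level as a covariate left 0, with 1981 (lowest adjusted p = 0.277). It was 0 with each heart left out. Of 1454 values of 105 named genes under the alternatives, 78 changed sign, and all of them moved by less than 1 SD between hearts. Against sham hearts DESeq2 gave 62 genes where edgeR gave 0, and leaving out 1 heart gave 0 to 1 (Angpt1, without MI heart 3). Against cell sheet hearts DESeq2 gave 353 and the fit with no replicate block 80. In sham hearts the count of 1 became 68 with DESeq2, 0 without TMM factors, 0 with no replicate block and 0 to 2 with each heart left out. Cell sheet hearts gave 521 with DESeq2. Infarct against remote gave 3236 to 5928 with each heart left out, and border against remote gave 4370 with DESeq2 and 3409 with no replicate block. The share of reads on no gene, -0.813 points, ran from -2.2 to 0.74 with each heart left out, above 0 without heart 6. For these count differences between tools and blocks the cause was not tested. Alternatives of the sham, cell sheet and remote comparisons were chosen after seeing the data. Depth limits low genes such as Csf3, Gzmb and Cyp2e1.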
